A study of Mus musculus with 4 samples.

Results

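The genes described here are 10 immediate early transcription factors, chosen by symbol: the NR4A orphan nuclear receptors Nr4a1, Nr4a2 and Nr4a3, the AP-1 subunits Fos, Fosb, Jun and Junb, the zinc finger factors Egr1 and Egr2, and Atf3. They are 10 of the 18193 genes with a single symbol on the array, and were chosen with earlier results of these data known. All 10 were represented, by 19 probe sets in all, and for each gene the brightest probe set was taken first. The arrays measured RNA from endometriotic lesions of mice, in which uterine-lining tissue grows outside the womb. There were 2 arrays from mice on a high-fat diet and 2 from mice on a casein diet, the study's control. Strain, age, cycle stage, the time on diet and the number of animals or lesions behind each array do not appear in the labels used here, so p-values measure only the spread between these samples, which may be technical.

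Immediate early genes are transcribed within minutes of a stimulus, without new protein synthesis, because the factors that switch them on, such as SRF with its ternary complex partners and CREB, already sit at their promoters and are activated by kinases. FOS and JUN proteins pair through leucine zippers to form AP-1, EGR1 and EGR2 bind GC-rich sites through zinc fingers, ATF3 is a stress-induced bZIP factor, and the NR4A receptors act without a known physiological ligand. Their messengers are short-lived, so levels in a dissected tissue reflect recent events such as growth factor, hormone or stress signals. In the uterus, estrogen induces Fos and Jun in a classical early response.

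Some signal-response elements of these genes lie in their promoters, and stretches holding matches are shown because the members are considered together below. RefSeq promoters (GRCm38.p6, 250 bases before to 50 after each annotated start) were at hand for 9 of the 10 genes, all but Egr1, whose promoter was not analysed here. The capitals mark TGACG or its reverse complement CGTCA, the core of the cyclic AMP response element (CRE), and for Egr2 also a CArG box, the site that SRF binds. Each line is read 5′ to 3′ on the gene's own strand.
Nr4a1: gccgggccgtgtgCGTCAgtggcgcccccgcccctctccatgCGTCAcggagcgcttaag
Nr4a2: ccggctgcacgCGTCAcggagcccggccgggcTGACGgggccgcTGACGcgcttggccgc
Nr4a3: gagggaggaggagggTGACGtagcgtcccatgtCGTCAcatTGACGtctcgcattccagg
Fos: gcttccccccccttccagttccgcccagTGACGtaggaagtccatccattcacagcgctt
Egr2: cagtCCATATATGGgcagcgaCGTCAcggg
Atf3: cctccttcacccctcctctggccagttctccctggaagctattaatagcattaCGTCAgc

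The stretch of Nr4a1 is chr15:101266764-101266823 (plus strand), that of Nr4a2 chr2:57124099-57124158 (minus strand) and that of Nr4a3 chr4:48045059-48045118 (plus strand). The stretch of Fos is chr12:85473796-85473855 (plus strand), that of Egr2 chr10:67537793-67537822 (plus strand) and that of Atf3 chr1:191183334-191183393 (minus strand). All 6 lie upstream of an annotated start, the Nr4a3 stretch from position -246 to -187 and the Atf3 stretch from -60 to -1. TGACG on either strand was present in the 300-base window of 8 of these 9 genes, all but Jun, against 23.0% of 27025 genes. The members' windows were also richer in G and C, with a median of 64.7% against 52.8%, and the core holds a CG pair. The full palindromic CRE, TGACGTCA, which includes the core, was in 0 of 9 (2.03% of genes). The AP-1 site TGANTCA was likewise in 0 of 9 (8.97% of genes), and the CArG box was in 1 of 9, Egr2 (1.81% of genes). The EGR site GCGGGGGCG was in 2 of 9, Nr4a1 and Fosb (3.31% of genes), and TATAAA in 3 of 9, Nr4a2, Fos and Junb (15.7% of genes), all on either strand. A match is a description of the letters and not evidence of binding in these lesions. Sites outside the 300-base windows were not searched, so a missing match does not mean that the gene lacks the site.

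All 10 members had a smaller mean log2 intensity on the high-fat diet than on the casein diet, and none of the differences passed the test. Of the members, 9 were bright enough to test in limma's fit over 12797 genes, and Fosb was not. The median log2 difference of the 9, high-fat minus casein, was -0.38, beside -0.0051 over all genes tested. All 9 lay below 0, where 51.4% of all genes did. No gene of the array was called after Benjamini-Hochberg adjustment at 0.05 (0%, with 636 genes at an unadjusted p under 0.05), and the members' adjusted p ran from 0.860 to 0.865. Both high-fat arrays lay below both casein arrays for 6 of the 9 members, against 19.3% of all genes tested. With 2 arrays against 2, an exact two-sided permutation test cannot give a p below 0.333. The comparisons with all genes, here and below, are descriptive, because the members were chosen with earlier results of these data known. In whole lesions, fewer cells of a type and less RNA per cell cannot be told apart.

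**Figure D1:**
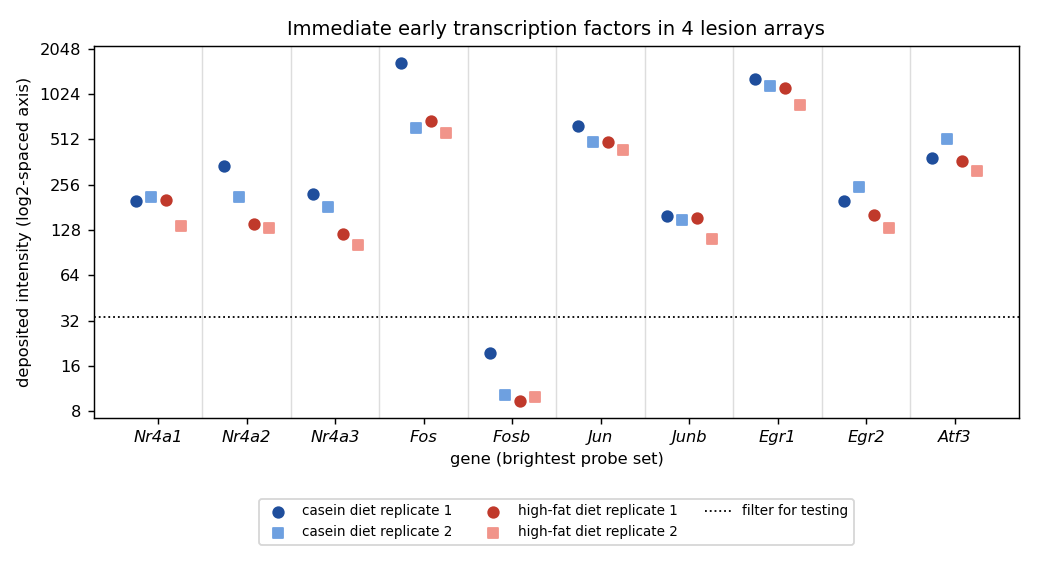
Deposited intensity of the brightest probe set of each gene (vertical axis, log2-spaced) in the 4 arrays, 2 per diet, with the dotted line at the filter of 33.9. High-fat diet replicate 2 is the lowest array for each of the 9 genes above the line, and Fos stands at 1654 in casein diet replicate 1 alone.

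Nr4a2 and Nr4a3 had the largest differences among the members in the brightest probe sets with all 4 arrays. Nr4a2, or Nurr1, which dopaminergic neurons need to form, was brightest in probe set 1447863_s_at, which read 342.1 and 212.8 in the casein arrays and 140.0 and 131.5 in the high-fat arrays. The groups did not overlap, and the casein arrays differed more from each other than the high-fat arrays did. The log2 difference of Nr4a2 was -0.99 (SE 0.27, 95% interval -1.74 to -0.24, unadjusted p = 0.0222, adjusted p = 0.863 in limma), a high-fat level 0.503 times the casein level. It was -0.65 when casein diet replicate 1 was dropped, a fit in which the lone casein array is assumed to vary like the others.

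Nr4a3, also called NOR1 and induced by cyclic AMP and by growth factors, read 223.1 and 182.5 in the casein arrays and 121.1 and 102.4 in the high-fat arrays. The arrays of each diet lay close together, with SDs of 0.20 and 0.17 log2, and the groups did not overlap. Its difference of -0.86 (SE 0.16, 95% interval -1.32 to -0.40, unadjusted p = 0.00719, adjusted p = 0.860 in limma) had the smallest p among the members, and 0.828% of the genes tested had a smaller one. Leaving out each array in turn gave -1.003 to -0.71.

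Nr4a1, or Nur77, which is induced by antigen receptor signalling in T cells, was the NR4A gene with overlapping groups. It read 200.1 and 210.9 in the casein arrays and 202.0 and 136.7 in the high-fat arrays, so 3 arrays were alike and high-fat diet replicate 2 was low. The difference was -0.31 (SE 0.22, 95% interval -0.94 to 0.33), and without high-fat diet replicate 2 it was -0.024.

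The further probe sets of Nr4a2 and Nr4a3 had the same sign as the brightest one but differences nearer to 0. Of 6 probe sets of Nr4a2, 5 had both high-fat arrays below both casein arrays. The second brightest, 1455034_at, had a difference of -0.93, with intensities of 277.4 and 173.0 in the casein arrays and 118.4 and 112.0 in the high-fat arrays. The probe sets 1450750_a_at, 1450749_a_at and 1433423_at gave -0.79, -0.50 and -0.44, the last with no value above 21.8. The exception was 1433422_at, whose groups overlapped and whose difference was -0.0054.

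For Nr4a3 the second probe set, 1421080_at, gave -0.34. It read 42.5 and 41.9 in the casein arrays and 27.9 and 39.6 in the high-fat arrays, so high-fat diet replicate 1 was the low array, unlike in the brightest probe set. The dimmest, 1421079_at, stayed under 10 in all 4 arrays and overlapped, with -0.088. With the mean of all probe sets of a gene, the differences of Nr4a2 and Nr4a3 were -0.61 and -0.43. All 9 further probe sets of the members had smaller means on the high-fat diet. Which transcripts each probe set detects was not analysed here.

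**Figure D2:**
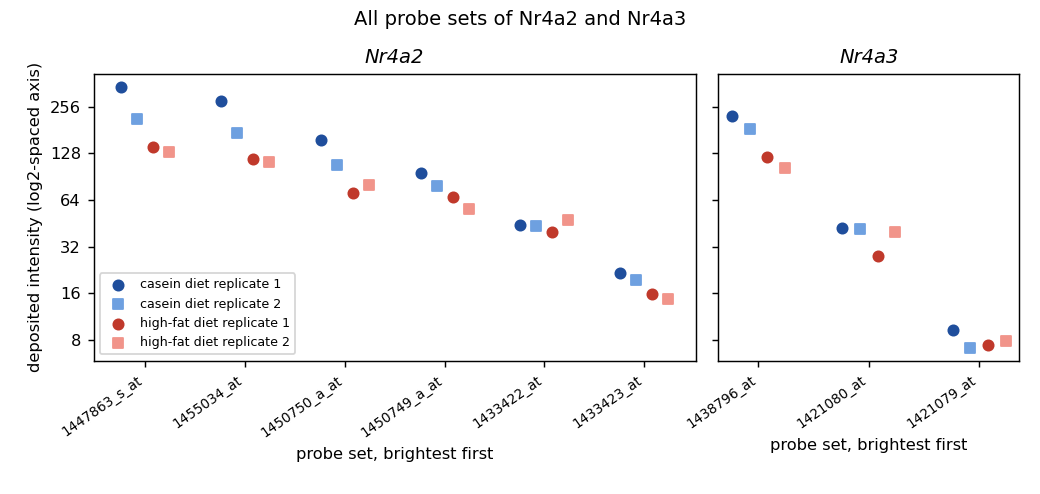
Deposited intensity (log2-spaced axis) of all 6 probe sets of Nr4a2 and all 3 of Nr4a3 in the 4 arrays, brightest probe set on the left. Apart from 1433422_at and 1421079_at, each has both high-fat arrays below both casein arrays.

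The FOS genes were set apart by 1 array. Fos, the AP-1 subunit that must pair with a JUN protein to bind DNA well, read 1654 and 611.4 in the casein arrays and 677.8 and 566.8 in the high-fat arrays. Only casein diet replicate 1 was high, and casein diet replicate 2 lay between the high-fat arrays. The difference of -0.70 had a wide interval (SE 0.54, 95% interval -2.22 to 0.82, unadjusted p = 0.266), and the SD between the casein arrays was 1.02 log2. Without casein diet replicate 1 the sign turned, to 0.020 (SE 0.17), and without casein diet replicate 2 it was -1.42.

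Fosb, a FOS relative that also gives the stable splice form deltaFosB, was below the filter, at 19.6 and 10.3 in the casein arrays and 9.42 and 9.996 in the high-fat arrays. Casein diet replicate 1 was again the only array that stood above the other three. No detection calls were at hand, so it is not known whether any of these values, the highest included, exceeds background. The log2 difference of -0.55 is given as a value only. In a fit of all 18193 genes without a filter, limma's adjusted p for Fosb was 0.853.

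The JUN genes had the smallest differences in the brightest probe sets with all 4 arrays, an order that changed with the probe sets and arrays used. Jun, the AP-1 subunit that can pair with itself, read 624.9 and 492.9 in the casein arrays and 490.5 and 435.2 in the high-fat arrays. The groups did not overlap, but casein diet replicate 2 and high-fat diet replicate 1 were nearly equal, and the difference was -0.26 (SE 0.16, 95% interval -0.73 to 0.20). Without casein diet replicate 1 it was -0.093. The second probe set of Jun, 1448694_at, gave -0.38, with 416.7 and 343.1 against 281.1 and 298.4. With the mean of its probe sets Jun was at -0.32, beyond Nr4a1 at -0.31 and Egr1 at -0.30. Without high-fat diet replicate 2 it was at -0.18, beyond Nr4a1 at -0.024 and Egr1 at -0.12.

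Junb, often an antagonist of Jun in growth control, read 157.5 and 149.1 in the casein arrays and 152.9 and 112.2 in the high-fat arrays. As for Nr4a1, high-fat diet replicate 2 was the only low array, and the groups overlapped. Its difference was -0.23 (SE 0.19, 95% interval -0.76 to 0.30), and it was -0.0034 without high-fat diet replicate 2.

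Egr2, also called Krox20 and known for Schwann cell myelination and for restraint of T cells, had a larger difference than Egr1, and the 2 were not tested against each other. It read 199.4 and 248.4 in the casein arrays and 160.3 and 131.0 in the high-fat arrays, with no overlap between the groups. The difference was -0.62 (SE 0.18, 95% interval -1.13 to -0.11, unadjusted p = 0.0282, adjusted p = 0.863 in limma), and it ran from -0.78 to -0.46 when 1 array was left out. The other probe set, 1427682_a_at, had the same order of arrays and a difference of -0.54.

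Egr1, the growth factor-induced zinc finger factor, read 1282 and 1155 in the casein arrays and 1119 and 867.1 in the high-fat arrays. The groups did not overlap, yet casein diet replicate 2 and high-fat diet replicate 1 lay close to each other. The difference was -0.30 (SE 0.17, 95% interval -0.78 to 0.17), or -0.12 without high-fat diet replicate 2.

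Atf3, a bZIP factor induced by many kinds of stress, read 386.6 and 517.0 in the casein arrays and 369.6 and 317.9 in the high-fat arrays. Casein diet replicate 2 was the highest array here, as for Egr2 and Nr4a1. The difference was -0.38 (SE 0.19, 95% interval -0.93 to 0.16). It was -0.17 when casein diet replicate 2 was dropped and -0.59 when casein diet replicate 1 was. Each of Nr4a1, Fosb, Fos, Junb, Egr1 and Atf3 had 1 probe set, so for these 6 genes no second measurement on the array was at hand.

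**Figure D3:**
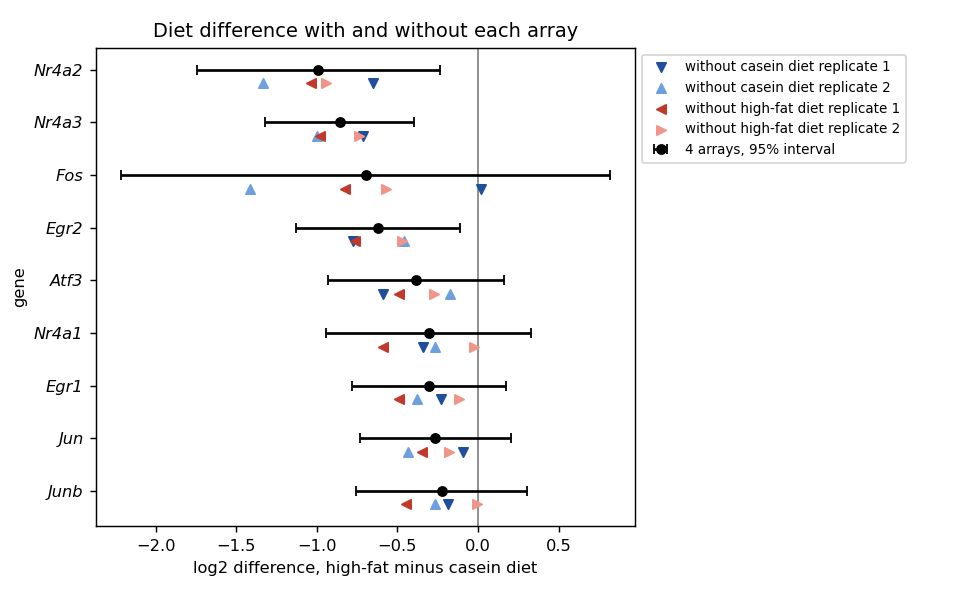
Log2 difference, high-fat minus casein diet, of the 9 members tested (black points with 95% intervals from limma) and the same value without each array (coloured triangles). The intervals of Nr4a2, Nr4a3 and Egr2 lie below 0 before adjustment, and only Fos without casein diet replicate 1 crosses to 0.020.

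In their brightest probe sets, the members tested were alike in the lowest array. This was high-fat diet replicate 2 for 9 of the 9, where it was lowest for 20.7% of all genes tested. The further probe sets were divided. High-fat diet replicate 1 was lowest in Jun 1448694_at, Nr4a2 1450750_a_at and 1433422_at, and Nr4a3 1421080_at, and also for Fosb. High-fat diet replicate 2 was lowest in Nr4a2 1455034_at, 1450749_a_at and 1433423_at, and Egr2 1427682_a_at. Casein diet replicate 2 was lowest in Nr4a3 1421079_at. Casein diet replicate 1 was the highest for 6 members, against 33.3% of all genes, and casein diet replicate 2 for the other 3. The mean deviation of the 9 from their own 4-array means was 0.38 and 0.14 log2 in the casein arrays and -0.11 and -0.41 in the high-fat arrays. At an unadjusted p under 0.05 there were 3 members, Nr4a3, Nr4a2 and Egr2, or 3 of 9 beside 2.73% of all genes in that direction. Without casein diet replicate 1, 8 of 9 members were below 0. Without each other array in turn, 9 of 9 were. The median without high-fat diet replicate 1 was -0.59.

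The genes whose profile over the 4 arrays was nearest to the members' mean profile were Hcar2, Rnd1, Msrb2, Rbpms and Stbd1, with root-mean-square distances of 0.023 to 0.043 log2 over 4 arrays. Hcar2, a receptor for niacin and ketone bodies, read 178.9 and 156.4 in the casein arrays and 126.2 and 104.1 in the high-fat arrays. Of the members, Egr1 lay nearest to this mean (0.11) and Fos farthest (0.43).

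Relatives of the members, upstream factors and other immediate early genes were compared by lists, to be read beside the shares of all genes tested, 51.4% below 0 and 19.3% with both high-fat arrays below both casein arrays. Of the AP-1, ATF and EGR relatives, 10 of 13 tested were below 0, with a median of -0.19, and 0 were called. The median was -0.063 when casein diet replicate 1 was dropped and -0.065 when high-fat diet replicate 2 was. Jund, a JUN protein that is made constitutively, read 3094 and 3312 in the casein arrays and 2932 and 2545 in the high-fat arrays, a difference of -0.23 (SE 0.12). The next by p were the BATF genes Batf2 (-0.64, SE 0.38, -0.14 without casein diet replicate 1) and Batf3 (-0.33, SE 0.20), and the AP-1 repressor gene Jdp2 (-0.27, SE 0.18). Fosl1 and Egr4 were below the filter.

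Among kinases and the SRF and CREB factors that act upstream, 11 of 19 were below 0 and the median was -0.011, near that of all genes. It was -0.053 when casein diet replicate 1 was dropped and -0.040 when high-fat diet replicate 1 was. The lowest p belonged to Crem, whose ICER forms repress CRE-driven genes and are themselves cyclic AMP-induced. It had 143.0 and 129.2 in the casein arrays and 99.7 and 99.7 in the high-fat arrays, a difference of -0.45 (SE 0.10, unadjusted p = 0.0137, adjusted p = 0.863 in limma). The SRF coactivator gene Mrtfa differed by -0.24 (SE 0.094). The growth factor kinase genes Rps6ka3 and Rps6ka5 differed by -0.31 (SE 0.13) and 0.54 (SE 0.25), in opposite directions.

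Other immediate early genes were divided, with 20 of 38 below 0, beside the 51.4% of all genes, and a median of -0.025. Without high-fat diet replicate 1, 26 were below 0 and the median was -0.091, and without casein diet replicate 1, 25 were and it was -0.053. Without casein diet replicate 2 the median was -0.015. Rgs1, a G protein regulator of lymphocytes, read 333.3 and 339.9 in the casein arrays and 191.8 and 197.6 in the high-fat arrays. The arrays of each diet were nearly equal and the groups did not overlap (difference -0.79, SE 0.090, unadjusted p = 0.00118, adjusted p = 0.849 in limma). Plk2, a stress-induced kinase gene, had 735.5 and 563.8 against 402.1 and 368.6 (-0.74, SE 0.17). Npas4, an activity-dependent factor of neurons, and Hbegf, the gene of a ligand of the EGF receptor, differed by -0.65 (SE 0.12) and -0.81 (SE 0.26). Rgs2, a further G protein regulator outside the naming rule that was chosen after its value was seen, went the other way by 0.76 (SE 0.27).

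Feedback inhibitors shut the response off, for instance by removing phosphate from the kinases or by destabilising the messengers. Of these, 12 of 16 tested were below 0, with a median of -0.12 that was -0.024 without high-fat diet replicate 2. Dropping casein diet replicate 1 gave -0.052, dropping casein diet replicate 2 gave -0.22 and dropping high-fat diet replicate 1 gave -0.21. Dusp1, the immediate early phosphatase of MAP kinases, read 691.5 and 738.9 in the casein arrays and 585.1 and 577.2 in the high-fat arrays (-0.30, SE 0.095). Spred2, a Ras pathway inhibitor gene, had 358.6 and 355.4 against 297.4 and 299.7 (-0.26, SE 0.089). The phosphatase genes Dusp5 and Dusp10 differed by -0.54 (SE 0.22) and -0.58 (SE 0.30).

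Genes described in textbooks as AP-1 or EGR1 targets were more often above 0 than below. Of 16 tested, 10 were above 0 and 6 below, with a median of 0.20, or 0.035 when casein diet replicate 1 was dropped and 0.066 when high-fat diet replicate 1 was. The matrix protease genes Mmp13 and Mmp3, for which AP-1 sites in the promoter are well described, differed by 3.66 (SE 0.40) and 1.95 (SE 0.33), with adjusted p = 0.849 and 0.856 in limma. These 2 values were known when the list was made. The urokinase gene Plau differed by 0.34 (SE 0.17) and the urokinase receptor gene Plaur by -0.24 (SE 0.13).

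Heat shock genes, which respond to protein-damaging stress, had a mean deviation above 0 in both casein arrays and below 0 in both high-fat arrays, as the members and several lists of tissue markers had. Of 10 tested, 9 were below 0, beside 51.4% of all genes, and 7 had both high-fat arrays below both casein arrays, beside 19.3%, with a median of -0.27. The chaperone gene Hspa1b read 2684 and 1952 in the casein arrays and 972.7 and 1230 in the high-fat arrays (-1.07, SE 0.22, unadjusted p = 0.0103, adjusted p = 0.863 in limma). Hspa1a, its near-identical neighbour whose probe sets may share signal, differed by -0.97 (SE 0.25), Hsph1 by -0.73 (SE 0.20) and Dnajb1 by -0.57 (SE 0.16). The mean deviations of the list were 0.33 and 0.11 in the casein arrays and -0.22 and -0.21 in the high-fat arrays. The near-equal means of the high-fat arrays hold genes that went both ways between them, such as Dnajb1 at 477.7 and 536.0 and Hsph1 at 922.8 and 787.1. With all 4 arrays no gene of these 6 lists was called, and none was when any 1 array was left out.

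**Figure D4:**
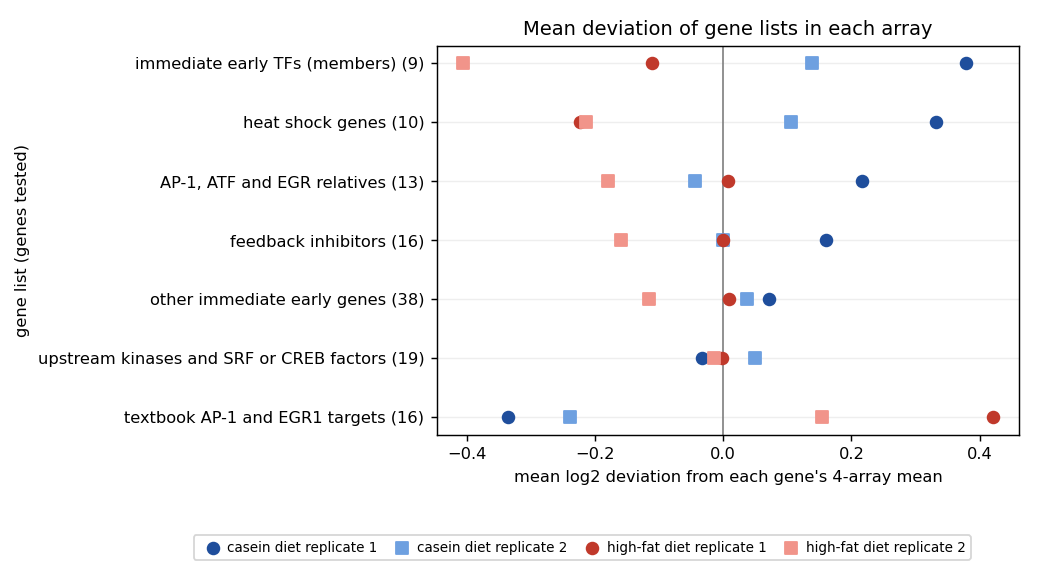
Mean log2 deviation of the tested genes of each list from their own 4-array means (horizontal axis), 1 point per array, with the number of genes tested in brackets. The members and the heat shock genes have both casein arrays on the right and both high-fat arrays on the left of 0. The textbook targets have the reverse, in means that include Mmp13 and Mmp3, whose values were known when the list was made. These means also include F3, named after its values were seen, at 2853 in high-fat diet replicate 2 against 550.8 to 610.4 in the other arrays.

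Marker genes of several tissues also differed between the arrays. Endometrial stroma markers were present in all 4 arrays but uneven, with summed intensities of 25334 and 29584 in the casein arrays and 31074 and 28569 in the high-fat arrays, and 7 of 9 were higher on the high-fat diet. The other 2 were the steroid receptor genes Esr1, between 3319 and 4046, and Pgr, between 2032 and 2761. Casein diet replicate 1 was low for Hoxa10 (647.2, against 1521 to 1886 in the other arrays), Hoxa11 (166.1, against 362.7 to 426.6) and Mme (362.6, against 934.8 to 1594), which were named after their values were seen. Without that array the median of the stroma markers was -0.0069, against 0.61 with it. Gastric mucosa markers were lower on the high-fat diet in 7 of 7 tested, with summed intensities of 64959 and 9914 in the casein arrays and 364.4 and 368.5 in the high-fat arrays. Of these, Atp4b differed by only -0.047 with overlapping groups, and Atp4a and Pgc were below the filter. Epithelial markers were lower in 9 of 9 (summed 27297 and 18393 against 8070 and 12110), and T cell markers in 5 of 5 (1336 and 756.8 against 671.7 and 703.2). Without casein diet replicate 1, 3 of the 5 T cell markers were below 0, with a median of -0.076 against -0.31 with all 4 arrays. Smooth muscle markers were lower in 7 of 7 (21318 and 25285 against 15656 and 13049), and mesothelium markers in 3 of 4 (627.4 and 546.6 against 432.1 and 425.9). Intestinal markers were lower in 3 of 3 tested (2774 and 218.3 against 119.4 and 157.6), and endothelial markers were higher in 6 of 6 (871.4 and 1173 against 1575 and 1693). Skeletal muscle markers were high in high-fat diet replicate 1 only (21822 against at most 836.0), and no marker was at 0 in any array. Neutrophil markers were higher on the high-fat diet in 4 of 4 (3 were below 0 without high-fat diet replicate 1), macrophage markers in 4 of 6 and adipocyte markers in 2 of 3. Smooth muscle, mesothelium, epithelial and gastric markers had mean deviations of the same signs as the members, above 0 in both casein arrays and below 0 in both high-fat arrays. The mesothelium genes Upk3b and Msln and the intestinal gene Vil1 passed the filter of 33.9 only with casein diet replicate 1 included. They read below 33.9 in both high-fat arrays, as Gkn1 and Gkn2 did, so the filter partly fixed the direction of Upk3b, Msln and Vil1. With all 4 arrays no marker gene tested was called. Without casein diet replicate 2 limma called the gastric genes Gkn1, Gkn2, Gkn3, Tff1, Tff2 and Muc5ac and the intestinal gene Fabp2. With all 4 arrays Fabp2, which ranged from 7.14 to 792.5, was below the filter and was not tested. The part of these tissues in the members' values was not tested. The Gapdh control probe sets, which gauge RNA integrity, gave a 3′ minus 5′ difference of 1.03 and 1.09 log2 in the casein arrays and 1.19 and 0.98 in the high-fat arrays.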

How the data were processed

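Per the labels' protocols, lesion RNA, isolated with a small-sample kit, was biotin-labelled for Affymetrix 3′ arrays. The authors deposited linear intensity values for 45101 probe sets in 4 samples, with alike medians that point to normalisation between arrays. The tools GCOS and RMA are listed per the submitters' processing notes, with no version, role or order stated. Such normalisation hides a shift shared by most genes.

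Groups came from the sample titles. Log2 was taken with no pseudocount. Probe sets with 1 symbol in the platform annotation were used (34945; 932 had several and 9160 none), the brightest per gene, and 12797 genes with a mean of at least 33.9 (the 40th percentile) were tested. Limma 3.58.1 in R 4.3.3 (lmFit, eBayes, 3.8 total degrees of freedom) was fitted over all of them with Benjamini-Hochberg adjustment, two-sided, after a check on simulated data. Precision is limited by having 4 arrays, and no detection calls were used. Named were all members, the 4 genes of each related list with the smallest p, and the 5 genes nearest in profile. Members, lists and markers were chosen with earlier results of these data known.

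Alternatives were the replicate block, 2 normalisations, filters, probe set choices, pseudocounts, an intensity trend, array weights, all probe sets, and leaving out each array. Figures were drawn with matplotlib 3.10.9.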

Additional observations from a re-analysis of the deposited data

How the results depend on the processing

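No member was called under any of the 15 alternatives, and 135 of 136 member values kept their direction; the exception was Fos without casein diet replicate 1, at 0.020, against -1.42 without casein diet replicate 2. Leaving out each array gave 0 to 19 called genes over the whole array, the 19 without casein diet replicate 2, with no member but 7 gastric and intestinal marker genes among them, and a median of the members of -0.59 to -0.27. Each of the other alternatives called 0 genes. Many of the 136 values could not change direction. The replicate block, the filters, the intensity trend and the array weights leave each member's log2 difference as it was. The probe set choices do so for genes with 1 probe set. Where the groups did not overlap, leaving out 1 array cannot turn the sign. Deviations of same-numbered arrays from their group means correlated at -0.022, so the numbers were not taken to pair the arrays. With the replicate number as a replicate block, limma called 0 genes (smallest adjusted p = 0.911, with 576 at an unadjusted p under 0.05). Fosb could be tested only without a filter, and no probe set of a member was called in the fit of all probe sets. Where 1 array is left out, the lone array of its diet is assumed to vary like the others. No detection calls were at hand, so signal over background could not be set for Fosb or for the dimmest probe sets of Nr4a2 and Nr4a3.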
